A study of Mus musculus with 6 samples.

Results

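The genes of the NRF2 antioxidant response were examined in C2C12, a line of mouse myoblasts that form myotubes in low-serum medium, with and without a *Phf2* knockout (KO). Their members were chosen by name, as 10 rows of the gene table: *Nfe2l2*, *Keap1*, *Hmox1*, *Nqo1*, *Gclc*, *Gclm*, *Txnrd1*, *Srxn1*, *Prdx1* and *Gsr*. They are 10 of the 55401 genes in the table, and all 10 were among the 17310 genes that passed the filter on low counts. Polyadenylated RNA was sequenced from 3 control wells and 3 *Phf2* KO wells 2 d post differentiation in medium with horse serum. The control cells are labelled wild type and received a Cas9 and ZsGreen plasmid whose guide has no match in the mouse genome. The *Phf2* KO cells received a pool of *Phf2* guides in the same vector. Both were sorted for ZsGreen, expanded as a pool without cloning, and frozen before use. The wells came from a single experiment with a single pool a group, so the p-values measure the spread between wells, and differences between the pools cannot be told apart from effects of *Phf2*.

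NRF2, the protein of *Nfe2l2*, is a transcription factor that raises genes of antioxidant defence. In unstressed cells KEAP1 binds NRF2 and hands it to a CUL3 ubiquitin ligase, so that NRF2 is degraded. When oxidants or electrophiles modify KEAP1, NRF2 accumulates, pairs with a small MAF protein and binds antioxidant response elements. NRF2 is thus controlled largely at the protein level, which RNA counts do not show. In muscle cells this response is known for handling the oxidants of respiration and contraction.

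The estimated counts of a library summed to 56821143 to 58507833 for control cells and 52526109 to 67502788 for *Phf2* KO cells. *Phf2*, the targeted gene, was examined first as the check of the labels. In CPM, the counts scaled to library size with TMM factors, it was at 102.4, 95.5 and 104.6 in control cells and at 41.1, 37.6 and 38.6 in *Phf2* KO cells (log2 fold change -1.37, adjusted p = 8.32e-09). The labelled cell type was checked against 8 myotube markers, which summed to 7371 to 9390 TPM (a level per transcript length, as a share of the library) in control cells and 6098 to 6885 TPM in *Phf2* KO cells. All 8 were below the control level in their log2 fold change and 4 of them (*Myog*, *Des*, *Myh3* and *Ckm*) fell with an adjusted p under 0.05. The 6 proliferating myoblast markers had log2 fold changes from -0.083 to 0.17, with 5 above 0 and 1 below, and none passed the threshold. Among them, *Mki67* and *Top2a* had log2 fold changes of 0.01. The myotube markers moved with the groups compared here, and their part in the results below was not tested. In bulk RNA, fewer cells of a type and less RNA per cell cannot be told apart.

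Of the 10 genes, *Nfe2l2* rose and *Hmox1* fell in *Phf2* KO cells, each by less than 1.5-fold. The other 8, which include the regulator *Keap1* and the enzymes of glutathione and thioredoxin metabolism, did not pass the test (adjusted p from 0.224 to 0.991 in the edgeR quasi-likelihood fit, with Benjamini-Hochberg adjustment over all genes tested). Thus 2 of 10 genes had an adjusted p under 0.05, where 6.48% of all genes tested did. In each direction it was 1 of 10, where 3.22% of all genes were higher and 3.26% were lower. At an unadjusted p under 0.05 there were 3 of the 10, where 19.4% of all genes tested passed. Under the replicate block there were 4, with *Keap1* in addition, but the share of all genes at this cut was not counted with the block. Over the 7 other lists described below, the block likewise moved the number at this cut from 36 to 44 of 118 genes tested. The median log2 fold change was -0.01 over the 10 genes and -0.001 over all genes tested. For 4 of the 10 genes the control and *Phf2* KO libraries did not overlap, a share of all genes that was 25.1%.

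**Figure D1:**
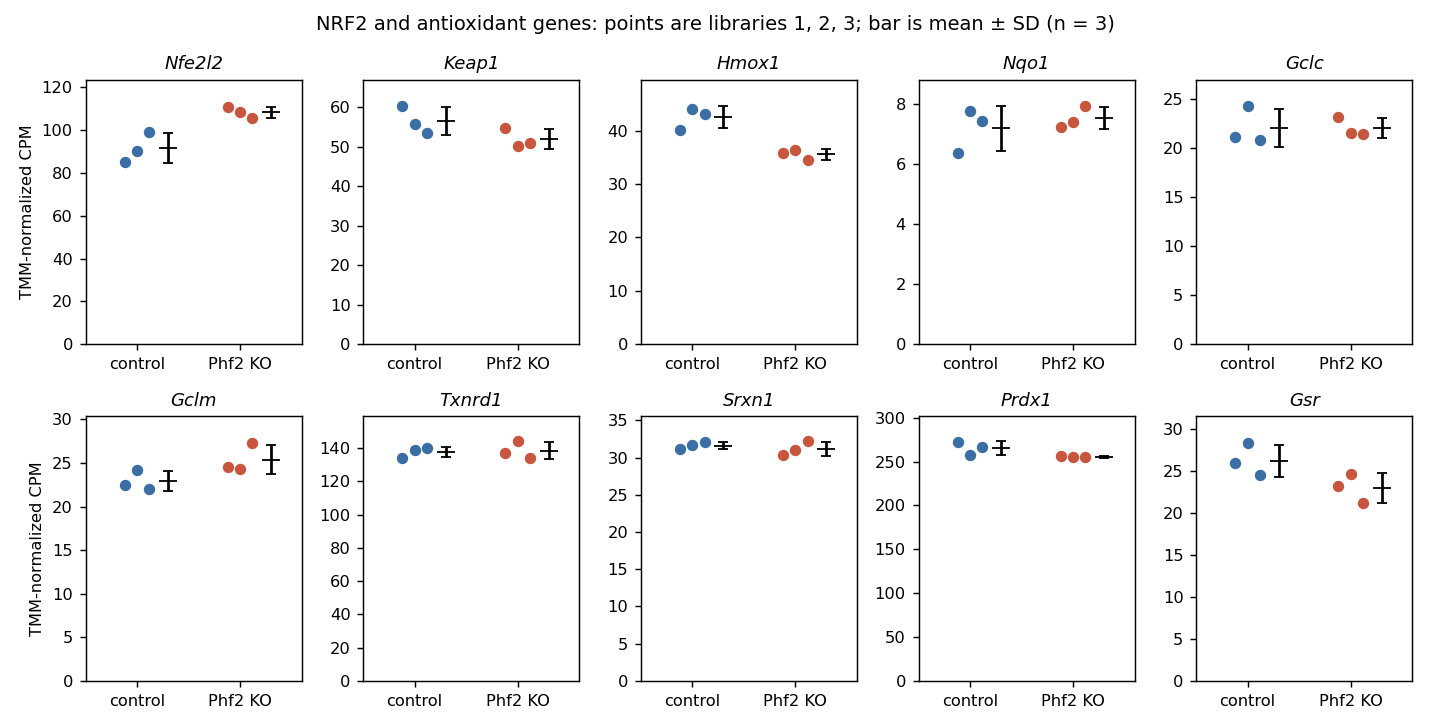
TMM-normalized CPM of each gene in the 3 control and 3 *Phf2* KO libraries (points, libraries 1 to 3 from left to right), with the mean and SD as a bar beside them; every vertical axis starts at 0. The groups do not overlap for *Nfe2l2*, *Gclm*, *Prdx1* and *Hmox1*, where the *Phf2* KO libraries reach 36.3 CPM and the control libraries start at 40.2 CPM.

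The genes were first placed by their level, in TPM, which is scaled to length and so can be set between genes. Assembled loci were left out of it, and whether signal of a gene went to them in some libraries was not tested. For *Gclm*, control libraries 1, 2 and 3 differed more in TPM (9.09, 12.6 and 8.79) than in CPM (22.4, 24.2 and 22.1). *Prdx1*, which encodes an abundant peroxiredoxin that reduces hydrogen peroxide, was the highest, at 239.0 to 258.7 TPM over the 6 libraries, and stood above 97.0% of the 19151 genes with a TPM above 0 in every library. *Txnrd1* followed at 100.2 to 113.1 TPM and *Nfe2l2* at 75.8 to 97.9 TPM. *Hmox1* was at 48.8 to 60.5 TPM, *Keap1* at 34.1 to 40.7 TPM, *Srxn1* at 23.4 to 26.1 TPM and *Gsr* at 17.7 to 22.8 TPM. From *Prdx1* down to *Gclc*, no 2 neighbours in this order had overlapping ranges. *Gclc* (11.6 to 14.5 TPM), *Gclm* (8.79 to 12.6 TPM) and *Nqo1* (8.79 to 11.4 TPM) overlapped with their neighbours and stood near the middle of all genes, *Nqo1* above 50.7% of them. The 10 genes summed to between 608.3 and 613.6 TPM in control cells and between 609.0 and 618.1 TPM in *Phf2* KO cells, ranges that overlap, and *Prdx1* alone made up 39.2% to 42.5% of each sum.

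**Figure D2:**
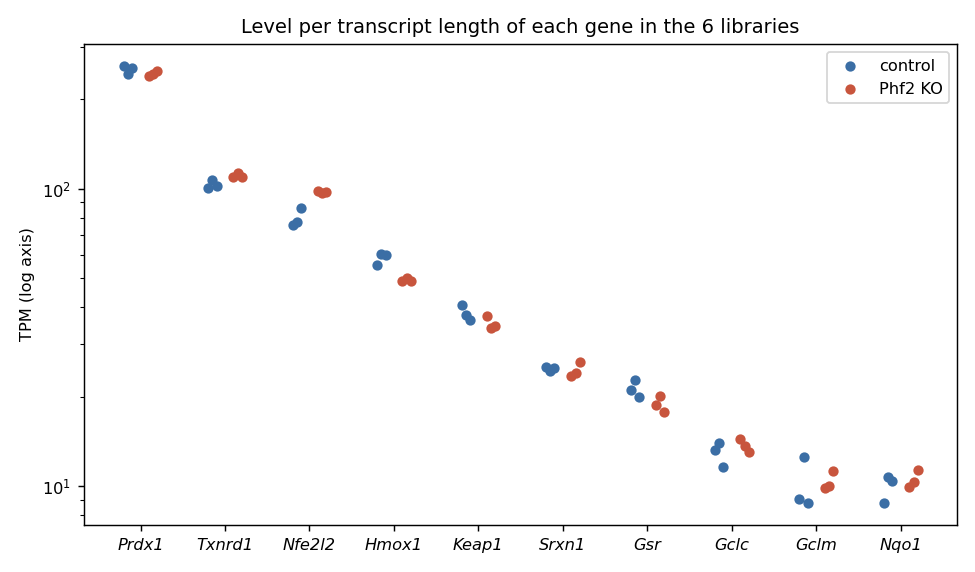
TPM (log axis) of each gene in every library, ordered by the mean over the 6 libraries; the left points of each gene are control and the right points *Phf2* KO. The levels span from 8.79 TPM to 258.7 TPM, and the steps between most genes are larger than the distance between the groups.

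*Nfe2l2* (ENSMUSG00000015839.6, mm10 chromosome 2, 75675513 to 75704641, minus strand) was at 85.2, 90.5 and 99.2 CPM in control replicates 1, 2 and 3 and at 110.9, 108.7 and 105.5 CPM in *Phf2* KO replicates 1, 2 and 3. Every *Phf2* KO library lay above every control library, and the nearest libraries were control replicate 3 and *Phf2* KO replicate 3. The mean rose from 91.6 ± 7.04 to 108.4 ± 2.69 CPM (SD, 3 wells each). The log2 fold change was 0.24 (SE 0.055, quasi-likelihood adjusted p = 0.0167), a 1.18-fold rise with a 95% interval of 1.09 to 1.28. Of the 6 fits without a library, 5 lost this call. Its adjusted p was 0.0918 with control replicate 1 left out and 0.1005 with control replicate 2 left out. It was 0.0583, 0.0737 and 0.0511 with *Phf2* KO replicate 1, 2 or 3 left out, and 0.00473 with control replicate 3 left out. The TPM table gave the same direction, with 75.8, 77.3 and 86.0 TPM in control cells and 97.9, 96.9 and 97.1 TPM in *Phf2* KO cells, but there the adjusted p from limma on log2(TPM + 1) was 0.0769.

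*Keap1* (ENSMUSG00000003308.15, chromosome 9, 21229730 to 21239361, minus strand), which encodes the adaptor that marks NRF2 for degradation, was at 60.4, 55.7 and 53.5 CPM in control cells and at 54.8, 50.3 and 50.9 CPM in *Phf2* KO cells. The groups overlapped, since *Phf2* KO replicate 1 lay above control replicate 3. The log2 fold change was -0.12 (SE 0.061, adjusted p = 0.304), with an interval of 0.841-fold to 1.01-fold. Each *Phf2* KO library was nevertheless below the control library of its number. Under the replicate block its log2 interval was -0.23 to -0.0063 (adjusted p = 0.211). Set side by side within each library, *Nfe2l2* exceeded *Keap1* by a TPM ratio of 1.86, 2.06 and 2.37 in control cells and 2.62, 2.84 and 2.80 in *Phf2* KO cells. These ratios were chosen after the values were seen and are given without a test. The ratio of *Txnrd1* to *Gsr* did not overlap between the groups either, at 4.76, 4.70 and 5.11 in control cells and 5.85, 5.63 and 6.17 in *Phf2* KO cells. That of *Gclc* to *Gclm* did overlap, at 1.46, 1.11 and 1.32 in control cells and 1.46, 1.37 and 1.16 in *Phf2* KO cells. An antisense gene on the opposite strand, Gm16754, shares exon positions with *Keap1* and had a mean of 85.5 counts.

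Promoter windows of RefSeq (GRCm38.p6, 250 bases before the transcript start and 50 after) were searched on both strands for the core letters of the antioxidant response element, TGACNNNGC, because NRF2 is known to bind this element in several of its targets and in its own gene. The table matched 7 of the 10 genes by symbol with 9 windows, of which *Txnrd1* had 3; *Hmox1*, *Gclc* and *Gsr* were not among them. The letters were found in 5 of the 9 windows, each of a different gene (*Nfe2l2*, *Gclm*, *Prdx1*, *Srxn1* and *Txnrd1*). They were not found in the windows of *Keap1* and *Nqo1*, and sequence further from the start was not searched. Of all 32851 windows, 12.4% held them. The upstream sequences of *Nfe2l2* and *Gclm*, the genes whose *Phf2* KO libraries all lay above the control libraries in CPM (*Gclm* without passing the test), are shown in the direction of transcription with the matched letters in capitals. The match lies at positions -240 to -232 from the start in *Nfe2l2* (chr2:75704664-75704913, minus strand, 70.4% G and C) and at -134 to -126, on the opposite strand, in *Gclm* (chr3:122245307-122245556, plus strand, 78.4% G and C).
Nfe2l2: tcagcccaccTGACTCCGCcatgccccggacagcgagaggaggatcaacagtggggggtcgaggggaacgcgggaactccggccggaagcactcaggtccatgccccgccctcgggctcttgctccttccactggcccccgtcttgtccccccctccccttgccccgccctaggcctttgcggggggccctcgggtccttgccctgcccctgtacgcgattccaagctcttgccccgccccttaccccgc
Gclm: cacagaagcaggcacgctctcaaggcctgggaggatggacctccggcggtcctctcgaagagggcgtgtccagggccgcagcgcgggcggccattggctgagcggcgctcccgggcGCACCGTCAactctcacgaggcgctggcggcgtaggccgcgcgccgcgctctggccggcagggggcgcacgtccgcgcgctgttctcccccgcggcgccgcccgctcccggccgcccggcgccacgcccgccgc

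In the other 3 genes the match is shown with 10 bases on either side, to set its letters and position beside those of *Nfe2l2* and *Gclm*. It lies at -133 to -125 in *Prdx1* (chr4:116685456-116685484), at 29 to 37 past the start in *Srxn1* (chr2:152105542-152105570) and at -92 to -84 in one of the *Txnrd1* windows (chr10:82859104-82859132), each on the strand opposite to the transcript.
Prdx1: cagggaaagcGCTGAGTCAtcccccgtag
Srxn1: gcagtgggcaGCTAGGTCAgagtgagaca
Txnrd1: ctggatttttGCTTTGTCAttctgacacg
The *Prdx1* match also holds the AP-1 letters TGACTCA, which 5.2% of all windows hold, at -131 to -125. The same AP-1 letters occur at -237 to -231 in *Prdx1* and at -102 to -96 and -45 to -39 in *Srxn1*. The log2 fold changes of the 5 genes with the core letters were 0.24 for *Nfe2l2*, 0.15 for *Gclm*, 0.01 for *Txnrd1*, -0.02 for *Srxn1* and -0.06 for *Prdx1*, so the letters were found in genes on both sides of 0. A match is a description of these letters and not a site of binding.

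Among the targets, *Hmox1* (ENSMUSG00000005413.8, chromosome 8, 75093621 to 75100589, plus strand) encodes the inducible heme oxygenase, which opens heme into biliverdin, iron and carbon monoxide. It was at 40.2, 44.1 and 43.2 CPM in control replicates 1, 2 and 3 and at 35.8, 36.3 and 34.4 CPM in *Phf2* KO replicates 1, 2 and 3. All 3 *Phf2* KO libraries lay below the lowest control library. The mean fell from 42.5 ± 2.03 to 35.5 ± 1.00 CPM (SD, 3 wells each), with a log2 fold change of -0.26 (SE 0.061, quasi-likelihood adjusted p = 0.022) and an interval of 0.763-fold to 0.916-fold. *Hmox1* and *Nfe2l2* thus moved in opposite directions. The *Hmox1* call, too, was lost in 5 of these 6 fits. Its adjusted p was 0.121 and 0.0614 with control replicate 2 or 3 left out, 0.0502, 0.0644 and 0.0904 with *Phf2* KO replicate 1, 2 or 3 left out, and 0.0229 with control replicate 1 left out. In TPM the levels were 55.5, 60.5 and 59.9 in control cells and 48.8, 50.2 and 48.9 in *Phf2* KO cells, again without overlap.

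*Hmox1* is also abundant in macrophages, so 6 macrophage markers were set beside it. Their TPM summed to 14.6 to 17.6 in control cells and 10.5 to 13.6 in *Phf2* KO cells, and 3 of the 6 passed the filter on low counts. *Cd14* made up most of that sum and fell (log2 fold change -0.64, adjusted p = 0.021), while the defining markers *Ptprc* and *Adgre1* were at most 0.0253 TPM and at 0 TPM. Adipocyte markers summed to 0.376 to 6.40 TPM and endothelial markers to 0.134 to 0.629 TPM over all libraries, with *Lep* listed at 0. Of the osteoblast markers, which summed to 18.8 to 22.4 TPM in control cells and 24.3 to 27.2 TPM in *Phf2* KO cells, only *Runx2* rose past the threshold, and *Ibsp* was listed at 0.

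**Figure D3:**
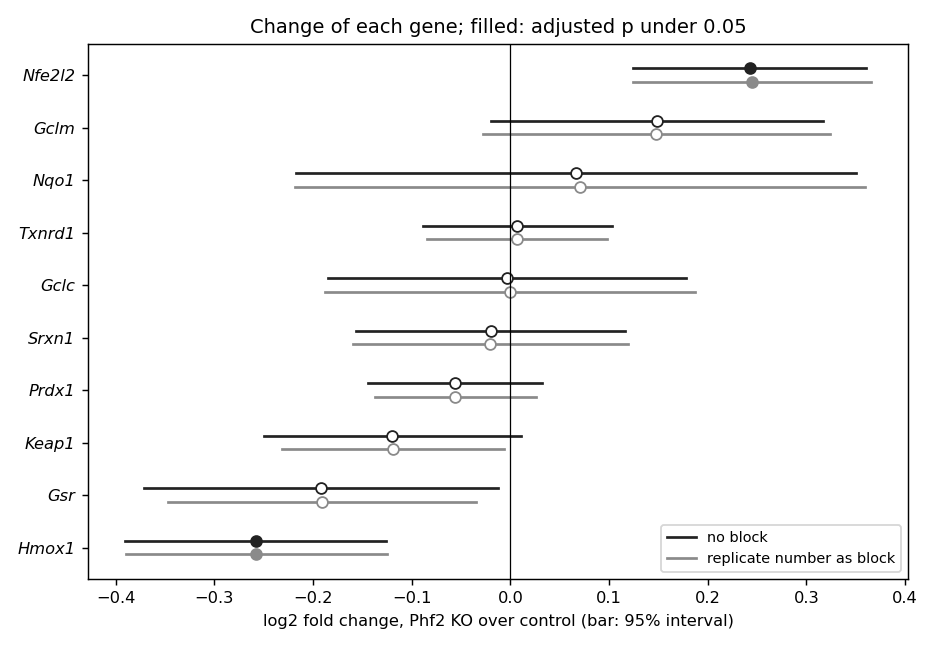
Log2 fold change of each gene (*Phf2* KO over control) with its 95% interval from the quasi-likelihood fit, without (black) and with (gray) the replicate number as a block; filled points have an adjusted p under 0.05. *Nfe2l2* at 0.24 and *Hmox1* at -0.26 are filled in both fits, and the other 8 genes lie between them.

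*Nqo1* (ENSMUSG00000003849.8, chromosome 8, 107388225 to 107403206), which encodes a quinone reductase and is often used as a readout of NRF2, was at 6.35, 7.76 and 7.44 CPM in control cells and 7.23, 7.41 and 7.92 CPM in *Phf2* KO cells. The groups overlapped, with a log2 fold change of 0.07 (SE 0.13, adjusted p = 0.854). It was the lowest of the 10 genes in CPM and had the widest interval, from 0.86-fold to 1.27-fold.

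*Gclc* and *Gclm* encode the catalytic and the modifier subunit of glutamate-cysteine ligase, the rate-limiting enzyme of glutathione synthesis. *Gclc* (ENSMUSG00000032350.9, chromosome 9, 77754535 to 77794485) was at 21.1, 24.3 and 20.8 CPM in control cells and 23.2, 21.5 and 21.4 CPM in *Phf2* KO cells. The libraries of the groups were interleaved, and the log2 fold change was -0.003 (SE 0.084, adjusted p = 0.991, interval 0.88-fold to 1.13-fold). *Gclm* (ENSMUSG00000028124.15, chromosome 3, 122245557 to 122270732) was at 22.4, 24.2 and 22.1 CPM in control cells and 24.5, 24.4 and 27.3 CPM in *Phf2* KO cells. Each *Phf2* KO library was above each control library, but by only a small margin between control replicate 2 and *Phf2* KO replicate 2, and the log2 fold change of 0.15 did not pass the test (SE 0.078, adjusted p = 0.329). In TPM, *Gclm* did not separate the groups (9.09, 12.6 and 8.79 in control cells, 9.90, 9.99 and 11.2 in *Phf2* KO cells). *Gclm* shares exon positions with Gm17494 on the opposite strand, which had a mean of 1763 counts, and with Gm6061 on the same strand, with a mean of 8.17 counts. Of the 50-base words of its transcripts, 3.92% also occur in transcripts of 88 other genes, among them *Ppia* and Gm6061. The part of these genes in the *Gclm* counts was not tested. Whether the strand was used in counting is not given in the sources used here.

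*Gsr* (ENSMUSG00000031584.16, chromosome 8, 33652523 to 33698163) encodes glutathione reductase, which restores reduced glutathione with NADPH. It was at 26.0, 28.3 and 24.5 CPM in control cells and 23.2, 24.7 and 21.2 CPM in *Phf2* KO cells. *Phf2* KO replicate 2 lay just above control replicate 3, so the groups overlapped, while each *Phf2* KO library was below the control library of its number. The log2 fold change was -0.19 (SE 0.083, adjusted p = 0.224), with an interval of 0.773-fold to 0.992-fold, and the adjusted p was 0.144 with the block. Its unadjusted p was under 0.05, as for *Nfe2l2* and *Hmox1*, but it did not pass the adjustment.

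In the thioredoxin branch, *Txnrd1* (ENSMUSG00000020250.10, chromosome 10, 82833951 to 82897712), the cytosolic thioredoxin reductase, was at 134.2, 139.0 and 140.0 CPM in control cells and 137.2, 144.0 and 134.1 CPM in *Phf2* KO cells. The groups spanned nearly the same range, and the log2 fold change of 0.01 (SE 0.044, adjusted p = 0.961) had an interval of 0.941-fold to 1.07-fold. In TPM the groups of *Txnrd1* did not overlap, with 100.2, 107.2 and 102.1 in control cells and 109.5, 113.1 and 109.5 in *Phf2* KO cells, and the adjusted p from limma on log2(TPM + 1) was 0.376. *Srxn1* (ENSMUSG00000032802.8, chromosome 2, 152105516 to 152111376), the sulfiredoxin that repairs overoxidized peroxiredoxins, was at 31.1, 31.7 and 32.1 CPM in control cells and 30.4, 31.0 and 32.2 CPM in *Phf2* KO cells. The highest and the lowest library were both *Phf2* KO, and the log2 fold change was -0.02 (SE 0.063, adjusted p = 0.917, interval 0.897-fold to 1.08-fold).

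*Prdx1* (ENSMUSG00000028691.12, chromosome 4, 116685544 to 116700822) was at 272.7, 257.2 and 266.2 CPM in control cells and 256.0, 254.7 and 255.0 CPM in *Phf2* KO cells. Every *Phf2* KO library was below every control library, and the *Phf2* KO libraries differed from each other by a coefficient of variation of 0.26%. The difference was small, with a log2 fold change of -0.06 (SE 0.041, adjusted p = 0.516) and an interval of 0.905-fold to 1.02-fold. Of the 50-base words of its transcripts, 8.29% also occur in transcripts of 39 other genes, so part of its reads could have been assigned elsewhere. For the other 8 genes, leaving *Gclm* and *Prdx1* aside, no such word was found in another gene. Over the 8 genes that did not pass the test, the separate intervals of the genes ran from 0.773-fold at the lowest to 1.27-fold at the highest. They rest on the spread between wells of a single pool a group and do not bound the changes of the 8 genes together.

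The wider antioxidant system was described with 7 lists written from textbook roles, with 134 genes beside the 10. Of the 118 genes tested, 10 passed the threshold (8.47%, beside 6.48% of all genes tested). Of these 10, 8 were higher and 2 lower in *Phf2* KO cells, where 3.22% of all genes tested were higher and 3.26% lower. The median log2 fold change of the 118 genes was 0.02. Leaving out 1 library gave between 3 and 12 genes past the threshold, the 3 both without control replicate 2 and without *Phf2* KO replicate 2. With the replicate number as a block there were 18 (10 higher and 8 lower), where 7.6% of all genes tested passed (3.74% higher and 3.86% lower). The genes named below as passing with the block alone were chosen after their values were seen.

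Among 15 regulators and partners of NRF2, all tested, 1 passed. *Bach2*, a relative of the repressor BACH1 that competes for antioxidant response elements, rose from 6.55 ± 0.308 to 9.64 ± 0.936 CPM (SD, 3 wells each), with a log2 fold change of 0.56 (SE 0.13, adjusted p = 0.0174). Leaving out control replicate 2 or 3 (adjusted p = 0.0682 and 0.0566) or *Phf2* KO replicate 2 (0.0933) ended its call. Its TPM did not follow in each library, with 0.520, 0.562 and 0.178 in control cells and 0.290, 2.59 and 2.30 in *Phf2* KO cells. *Bach1*, named for its role after the values were seen, is the known repressor of *Hmox1*, and it was at 56.7, 57.5 and 57.7 CPM in control cells and 56.2, 55.4 and 57.4 CPM in *Phf2* KO cells (log2 fold change of -0.02, adjusted p = 0.862). The ubiquitin ligase scaffold *Cul3* and the ring subunit *Rbx1*, named likewise, had log2 fold changes of 0.11 and -0.13 with adjusted p of 0.171 and 0.0902. The median over these 15 genes was -0.02.

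Among the genes of glutathione synthesis and use, 33 of 42 were tested and 2 passed, both higher. *Gpx1*, the main cytosolic glutathione peroxidase, rose from 80.2 ± 2.05 to 97.5 ± 7.39 CPM (SD, 3 wells each), with a log2 fold change of 0.28 (adjusted p = 0.0078). *Gsta4*, a glutathione transferase for lipid aldehydes, rose from 53.9 ± 2.29 to 63.5 ± 0.682 CPM (SD, 3 wells each), with a log2 fold change of 0.24 (adjusted p = 0.0145). *Gpx1* lost its call without *Phf2* KO replicate 2 (adjusted p = 0.0539), and *Gsta4* lost it without control replicate 2 (0.0935) and without *Phf2* KO replicate 2 (0.0718). The median over the 33 genes was -0.01.

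In the thioredoxin and peroxiredoxin system, 2 of 19 genes passed. *Txnip*, which encodes an inhibitor of thioredoxin, rose from 118.1 ± 1.44 to 143.7 ± 10.6 CPM (SD, 3 wells each), with a log2 fold change of 0.28 (adjusted p = 0.0049), and stayed past the threshold without each library in turn. *Sesn3*, a sestrin, rose from 67.3 ± 5.96 to 81.9 ± 1.56 CPM (SD, 3 wells each), also by 0.28 (adjusted p = 0.0124), with adjusted p of 0.0762 without control replicate 2 and 0.0604 without *Phf2* KO replicate 3. The median was 0.05. With the replicate number as a block, 4 genes passed, with *Msrb3* higher (adjusted p = 0.0335) and *Txn2*, the mitochondrial thioredoxin, lower (adjusted p = 0.0193) in addition. *Txn2* was near the threshold without the block as well (quasi-likelihood adjusted p = 0.0544). Among 9 tested genes for superoxide dismutases, catalase and NADPH oxidases, *Cat* passed. The catalase gene rose from 82.6 ± 2.37 to 94.5 ± 0.784 CPM (SD, 3 wells each), with a log2 fold change of 0.19 (adjusted p = 0.018), and its call was lost without control replicate 1 (0.083), control replicate 2 (0.0977), *Phf2* KO replicate 2 (0.0665) or *Phf2* KO replicate 3 (0.0529). With the block, *Sod3*, the extracellular superoxide dismutase, also passed and was lower (adjusted p = 0.0365).

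Of 12 genes listed under NADPH supply, 2 passed and were higher. A place on this list does not mean that the enzyme itself makes NADPH. *Tkt*, the transketolase of the pentose phosphate pathway, rose from 65.2 ± 2.46 to 79.3 ± 3.28 CPM (SD, 3 wells each), with a log2 fold change of 0.28 (adjusted p = 0.0049), and held without each library in turn. *Me2*, a mitochondrial malic enzyme, rose by a log2 fold change of 0.24 (adjusted p = 0.0282), and lost its call without control replicate 1 (0.102), control replicate 2 (0.0985), *Phf2* KO replicate 2 (0.11) or *Phf2* KO replicate 3 (0.0853). *G6pdx*, named for its role after the values were seen as the entry enzyme of the pentose phosphate pathway, had a log2 fold change of 0.07 (adjusted p = 0.576). The median over the 12 genes was 0.07.

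Of 13 tested genes for heme and iron, 1 passed. *Fth1*, the ferritin heavy chain that stores iron, fell from 1255 ± 26.5 to 1118 ± 39.9 CPM (SD, 3 wells each), with a log2 fold change of -0.17 (adjusted p = 0.0161), without overlap between the groups. Its adjusted p was 0.121 with exactTest, 0.0872 without control replicate 2 and 0.0948 without *Phf2* KO replicate 2. With the replicate number as a block, *Tfrc*, the transferrin receptor, and *Abcb6*, a porphyrin transporter, were also lower past the threshold (adjusted p = 4.27e-04 and 0.00182, against 0.348 and 0.36 without it). *Tfrc* was at 122.0, 145.4 and 153.7 CPM in control replicates 1, 2 and 3 and at 85.5, 114.5 and 122.7 CPM in *Phf2* KO replicates 1, 2 and 3, so the groups overlapped while each *Phf2* KO library was below the control library of its number. Among 17 other tested targets, *Trim16* passed, with a fall from 18.0 ± 0.30 to 14.0 ± 1.14 CPM (SD, 3 wells each) and a log2 fold change of -0.36 (adjusted p = 0.0314). *Trim16* passed in just 1 of the 6 fits that left out a library, without *Phf2* KO replicate 3 (0.0399), and had adjusted p of 0.0773 to 0.132 in the others. With the block, *Mt2*, a metallothionein, and *Akr1b3*, an aldose reductase, were lower as well (adjusted p = 9.62e-04 and 0.0176, against 0.202 and 0.0666 without it) and *Ugdh* was higher (adjusted p = 0.0459, against 0.136).

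**Figure D4:**
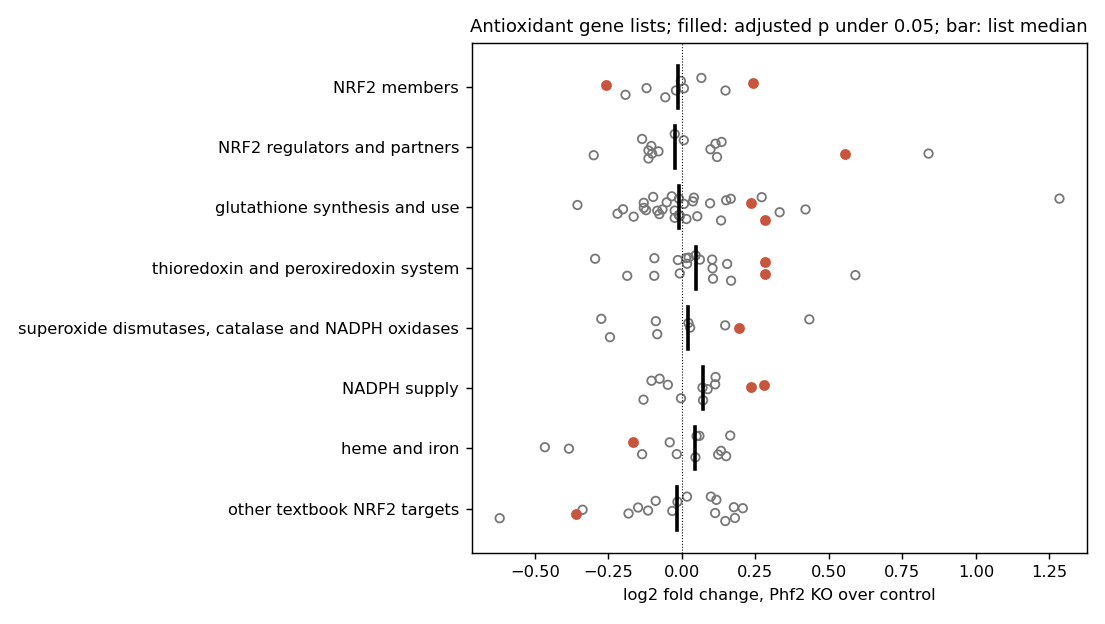
Log2 fold change of every tested gene of the 10 NRF2 genes and the 7 other lists (points, spread vertically for visibility only), with the median of each list as a black bar. Filled points have an adjusted p under 0.05; the list medians lie between -0.02 and 0.07.

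**Figure D5:**
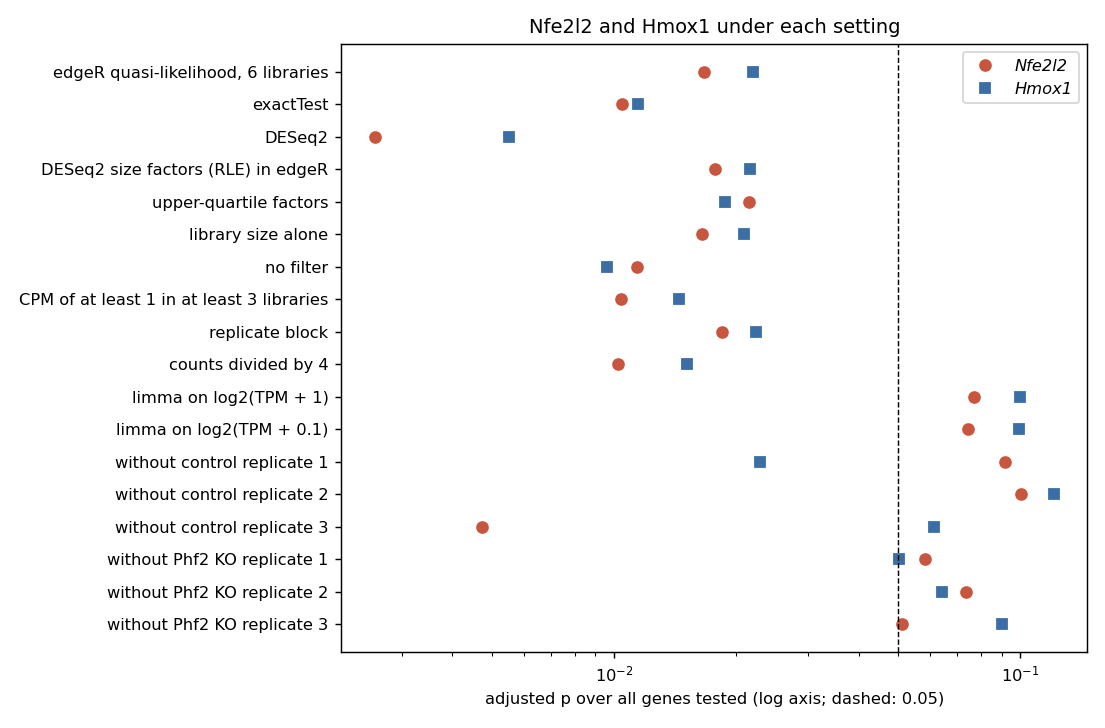
Adjusted p over all genes tested (log axis) of *Nfe2l2* (circles) and *Hmox1* (squares) under the quasi-likelihood test with all 6 libraries and each alternative; the dashed line is 0.05. With all 6 libraries the count-based settings lie left of the line and the TPM-based ones right of it; of the 6 fits without a library, 1 for each gene lies left of it.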

How the data were processed

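The authors mapped the read pairs with HISAT2 (mm10) and quantified genes by StringTie; versions and annotation are not given in the sources used here. Values of the deposited gene matrix are StringTie's estimated counts, unscaled and whole. Covered bases per count had a median of 75.0 in each library for genes with 1 transcript, so a pair of 150 bp reads adds about 4 counts. Per library, the authors also deposited TPM, a signal scaled within that library, of which assembled loci were left out. The members and lists were chosen with earlier results of these data known, and the lists come from textbook roles. Named were the 10 genes, *Phf2* and at most 4 genes past the threshold per list, those with the largest change; other genes, markers aside, are marked where named.

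Genes passing filterByExpr at a minimum count of 10 were compared with TMM factors in a robust quasi-likelihood fit (edgeR 4.0.16 in R 4.3.3, prior count 0.125, Benjamini-Hochberg over 17310 genes, threshold 0.05). The code was run on simulated unpaired counts with larger changes than those of *Nfe2l2* and *Hmox1*. That run does not cover changes as small as theirs or paired libraries. Intervals are 95% intervals of that fit. The replicate numbers may carry a pairing. Deviations from the group means were correlated between libraries over 10923 genes with at least 5 CPM. Same-numbered libraries had correlations of 0.235, 0.258 and 0.168, and those of other pairs were below 0. Within a group the deviations of a gene sum to 0, so the negative values follow in part from the positive ones and add no evidence of pairing. The paper describes no pairing, so the block was an alternative. Others were exactTest, DESeq2 1.42.0, other scalings, other filters, counts divided by 4, limma 3.58.1 on TPM, and leaving out each library. Coordinates follow GENCODE M21 (GRCm38), the assembly of mm10, whose identifiers and versions matched those of the 10 genes. Figures were drawn with Python 3.11.15.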

Additional observations from a re-analysis of the deposited data

How the results depend on the processing

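The replicate block kept the calls of *Nfe2l2* and *Hmox1* and the other 8 NRF2 genes on their side of the threshold. It moved the number of genes past it from 2 to 4 for the thioredoxin list, 1 to 2 for superoxide dismutases, catalase and NADPH oxidases, 1 to 3 for heme and iron and 1 to 4 for other targets, and left the other lists at their number. The limma tests on TPM, with 1 or 0.1 added before the log2, left fewer calls. They called 158 and 178 of all genes instead of 1122, and 0 of the 10 NRF2 genes (2 at an unadjusted p under 0.05). Of each other list they called 0, with 26 and 25 of the 118 tested genes of the 7 lists at an unadjusted p under 0.05. The share of all genes at that unadjusted cut, 19.4% in the quasi-likelihood fit with all 6 libraries, was not counted in these tests on TPM. In them the log2 fold change was 0.29 and 0.29 for *Nfe2l2* and -0.24 and -0.25 for *Hmox1*, and *Gclc* turned to 0.0776 and 0.083; the cause was not tested. With upper-quartile factors *Txnrd1* turned to -0.0029. The thioredoxin list had 4 genes past the threshold with DESeq2, a filter of 1 CPM in 3 libraries and counts divided by 4, and the other targets had 2 in these fits and with exactTest.

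Without 1 library, the genes past the threshold ranged from 468 to 1039 (468 without control replicate 2, 577 without *Phf2* KO replicate 2, 613 without *Phf2* KO replicate 3). Of the 10, 2 to 4 had an unadjusted p under 0.05 in edgeR's test, a cut at which the share of all genes was not counted in these fits. Those of the 10 past the threshold ranged from 0 to 1. The counts ranged from 0 to 1 for regulators, 0 to 3 for glutathione, 1 to 3 for thioredoxin, 0 to 2 for superoxide dismutases, catalase and NADPH oxidases, 1 to 2 for NADPH, 0 to 2 for heme and iron and 0 to 1 for other targets. Log2 fold changes ranged from 0.19 to 0.30 for *Nfe2l2*, -0.30 to -0.23 for *Hmox1*, -0.0174 to 0.13 for *Nqo1*, -0.0456 to 0.0713 for *Gclc*, -0.0215 to 0.0301 for *Txnrd1* and -0.0434 to 0.0001 for *Srxn1*. *Keap1*, *Gclm*, *Prdx1* and *Gsr* kept their direction and stayed above the threshold in all 17 alternatives, and *Phf2* passed in all 17.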
